A study of Rattus norvegicus with 8 samples.

Results

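The immediate early genes described here are 10 named genes: Egr1, Egr2, Egr3, Nr4a1, Nr4a2, Nr4a3, Ier2, Ier3, Dusp1 and Zfp36. They were chosen by name, with earlier results of these data known. Their probes were found by matching each gene probe's RefSeq transcript to the rat symbol. All 10 had a probe, 13 probes in all, among 16581 genes with a symbol on the array. Signals came from retinal cells of Lister hooded rats taken on postnatal day 0. Both groups carried the same handling: the retinas were electroporated in vitro (25 V pulses of 50 ms) and kept as explants for 39 hours, then dissociated with trypsin, after which GFP-positive cells were sorted. The groups differed in the plasmid, a control plasmid (4 arrays) or one encoding the transcription factor Klf4 (4 arrays), and arrays were numbered 2 to 5 in each group. The labels name neither the plasmids' promoter nor whether each array came from separate animals. The p-values therefore rest on a spread between samples that may be technical. The sorted cells were a mixture, and fewer cells of a type and less RNA per cell cannot be told apart.

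Immediate early genes are transcribed within minutes of a stimulus, without new protein synthesis, mostly through kinase pathways that act on serum response factor, its partners and CREB. Their products then switch on later genes or shut the response down. EGR proteins are zinc-finger transcription factors, NR4A proteins are nuclear receptors whose activity is set mainly by their abundance, and both families respond to neuronal activity and to tissue dissociation. DUSP1 is a phosphatase that inactivates MAP kinases, and ZFP36 (tristetraprolin) binds AU-rich elements and speeds the decay of mRNAs, those of cytokines and of other early genes among them.

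Levels are log2 signals less the 75th percentile of the gene probes on the same array, so that 0 is that percentile. They are compared for a probe across arrays and never between probes. Of 13 probes, 12 were kept by the filter on dim probes, which asks for 3 of the 4 arrays in either group to be well above background. The exception was the single probe of Nr4a3, an NR4A receptor, which was not well above background on any of the 8 arrays and was not tested. Of the 9 members tested with their brightest kept probe, 2 rose with the Klf4 plasmid, Zfp36 and Nr4a1, and 0 fell (limma, Benjamini-Hochberg adjusted p under 0.05 over 29988 features). The background was 3.20% of all features higher and 0.467% lower, 3.67% in all. With single arrays left out these shares were 2.01% (without Klf4 replicate 2) to 4.07% (without Klf4 replicate 4) higher and 0.107% (without control replicate 2) to 1.35% (without Klf4 replicate 4) lower. The same 2 were the members with an unadjusted p under 0.05, against 11.9% of all features, and limma called 0 lower members at that threshold too. The groups did not overlap for these 2 genes, both higher, and overlapped for the other 7; of all features, 10.2% did not overlap, 5.74% higher and 4.47% lower. The members' median difference was 0.19, against -0.07 over all features tested and -0.03 over the 13595 tested genes with a symbol, as the members have. Of these 13595 genes, 620 were called higher and 86 lower, and 1981 had an unadjusted limma p under 0.05.

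Arrays differed in ways that bear on these values. Of the gene spots, the share detected well above background was 72.1% on Klf4 replicate 4 and 75.2% on control replicate 5, and 78.3% to 86.5% on the other 6. Of the scan's own quality checks, those of both replicates numbered 4 lay out of range, and both numbered 5 came from a later scan. Controls lay in slide columns 1 and 3 and Klf4 arrays in columns 2 and 4, so column and group cannot be told apart. The probe for Klf4 itself differed by 0.27 (SE 0.46, limma adjusted p = 0.916), and since no source used here places it relative to the plasmid insert, it cannot serve as a check of the groups. The retinal neuron markers Crx, Otx2, Nrl, Rcvrn, Pax6 and Neurod1 were well above background on all 8 arrays.

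**Figure D1:**
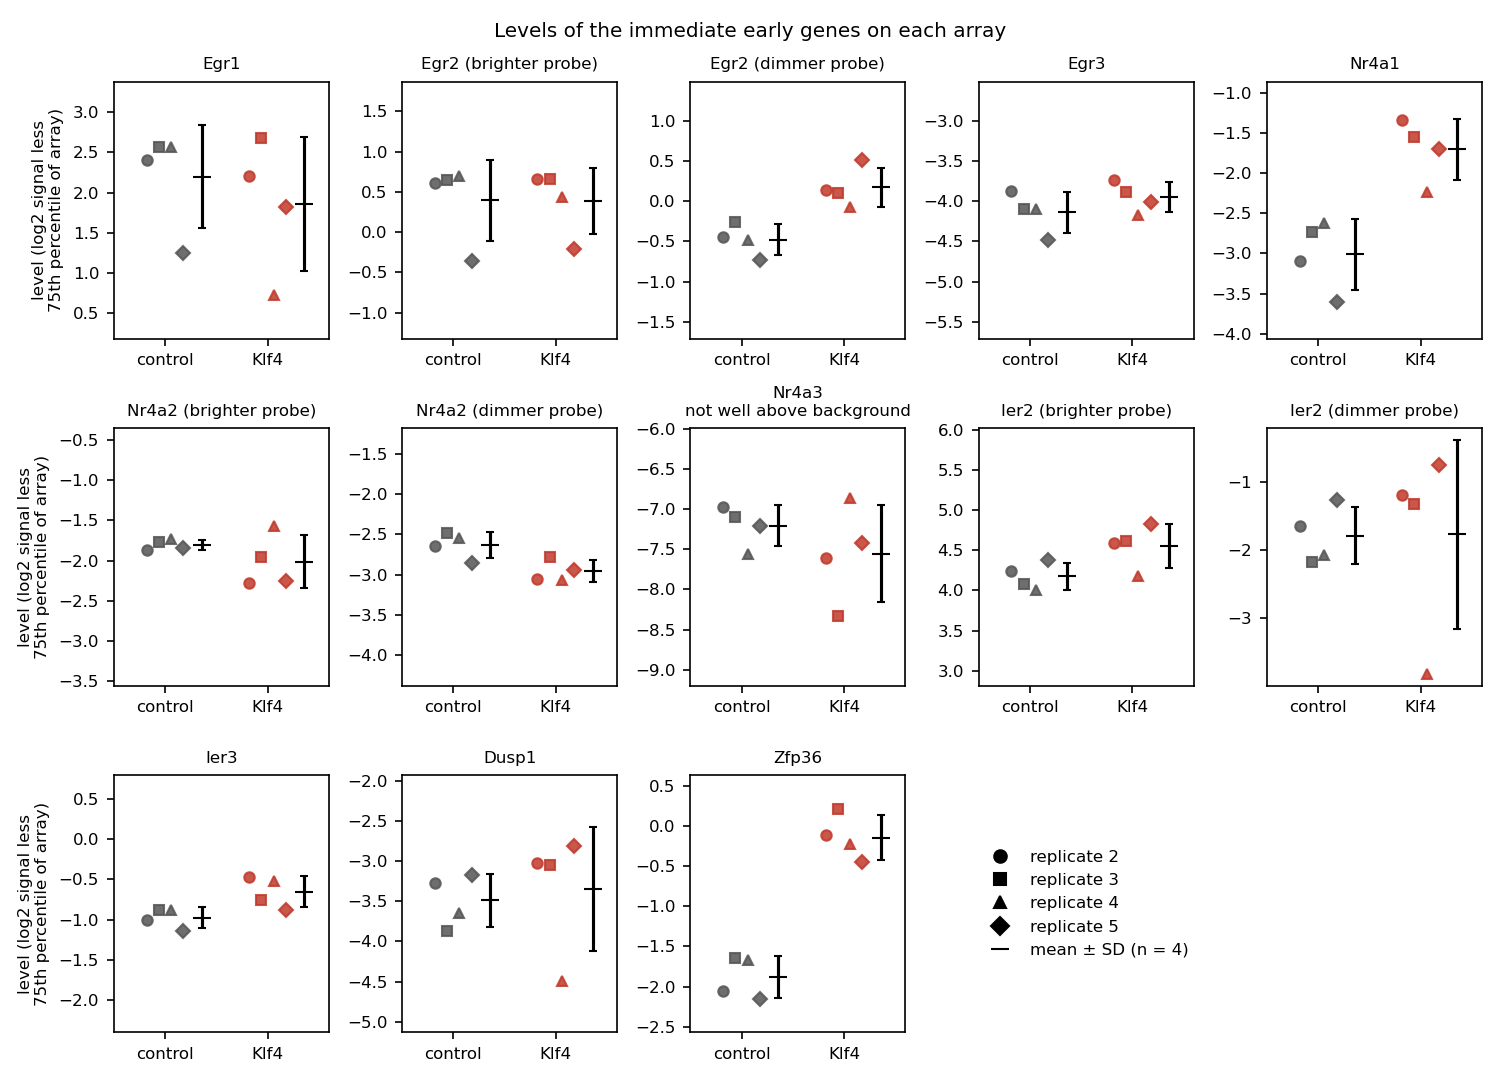
Level of each member's probes on each array (vertical axis, log2 signal less the array's 75th percentile; each panel has its own range) for 4 control and 4 Klf4 arrays, with the mean ± SD beside them. The groups stand apart for Zfp36 and Nr4a1 and for the dimmer Egr2 probe, while Egr1 and the brighter Egr2 probe are lowest on control replicate 5 or on Klf4 replicate 4 or 5.

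Zfp36 changed most. In the controls its level was -2.06, -1.65, -1.67 and -2.15 on replicates 2 to 5. With the Klf4 plasmid it was -0.12, 0.21, -0.23 and -0.45. Every Klf4 array therefore lay above every control array, and the gap between the groups was wider than the range within either. The deposited signal, before any scaling, was 7.36 to 9.10 on the log2 scale in the controls and 9.17 to 10.66 with Klf4, so the groups did not overlap on that scale either. The group means were -1.88 ± 0.26 and -0.15 ± 0.28 (SD, n = 4 each), a rise of 1.74 on the log2 scale or 3.33-fold (SE 0.19, limma adjusted p = 0.00141). The rise was 1.75 within the first scan, with 3 arrays per group, and 1.70 within the second, with 1 per group. With any 1 array left out it lay between 1.61 and 1.84 and kept its call. Under another background correction (normexp on pixel medians, added after seeing the data) it was smaller, 1.395 (limma adjusted p = 0.00143).

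Nr4a1 (Nur77), a nuclear receptor induced by growth factors and by depolarisation, also rose. Its control levels on replicates 2 to 5 were -3.10, -2.73, -2.62 and -3.60. With Klf4 they were -1.34, -1.55, -2.24 and -1.70. Again all 4 Klf4 arrays were above all 4 controls, but the lowest of them, replicate 4, lay close to the highest control. Before any scaling the groups overlapped, unlike those of Zfp36: the log2 signal was 7.92 on Klf4 replicate 5 and 8.02 on control replicate 3. The means were -3.01 ± 0.44 and -1.71 ± 0.38 (SD, n = 4 each), a rise of 1.30 or 2.47-fold (SE 0.27, limma adjusted p = 0.0326). The probe was spotted 10 times on each array, and the SD between the spots of 1 array was 0.04 to 0.19, smaller than the SD between arrays. The call was lost without control replicate 2 (adjusted p = 0.111), 3 (0.0614) or 5 (0.0557) or Klf4 replicate 2 (0.110), 3 (0.0995) or 5 (0.0918), in the first scan alone (difference 1.11, adjusted p = 0.132) and when dim probes were not filtered (0.0604). It was lost too when the percentile was taken over spots in place of probes (1.21, adjusted p = 0.0837), a setting chosen after seeing the data. With the replicate number as a block the call was lost as well (limma adjusted p = 0.0859). The difference was 1.90 in the second scan, with 1 array per group, and stayed above 0 in all 23 alternatives. It was lowest with normexp, at 0.92 (limma adjusted p = 0.0364).

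**Figure D2:**
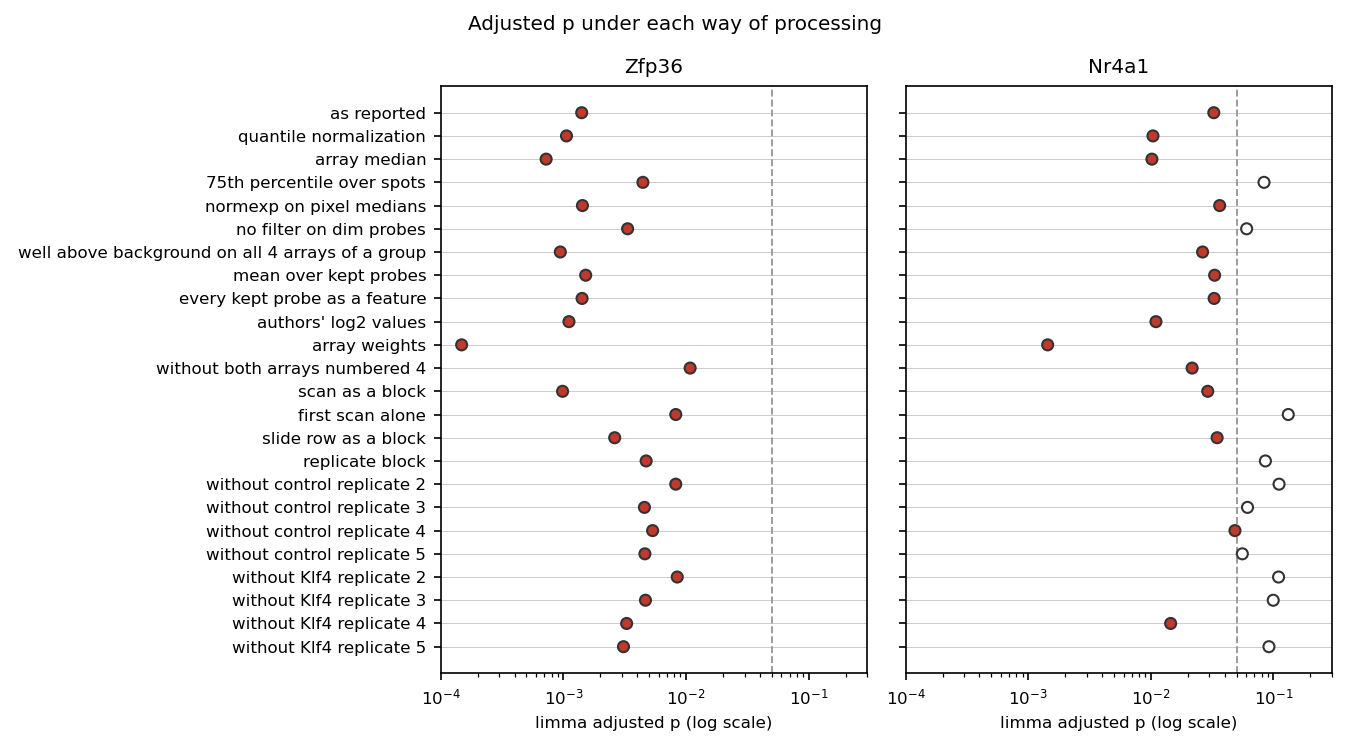
Adjusted p (horizontal log axis) of Zfp36 and Nr4a1 as reported and under each of 23 alternatives; filled points are past the threshold of 0.05, drawn as a dashed line. All points of Zfp36 are filled, from 0.000148 to 0.0108, while 10 of the 23 alternatives for Nr4a1 are open.

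Single genes from lists of other cell types that such a sort could hold also rose. Most tested members of these lists did not pass. In the pericyte and fibroblast list, the summed linear signal relative to the 75th percentile was 3.89 to 4.80 on the control arrays and 7.38 to 9.14 on the Klf4 arrays. Of its 4 tested members of 7, 1 was higher, the collagen gene Col1a1 (1.36, limma adjusted p = 0.00123). Col1a1 was also the brightest of the 4 (mean level 1.40 in the controls and 2.76 with Klf4), so the sum mostly followed it. The other 3 had differences below 0 and did not pass, Pdgfrb (-0.86), Col1a2 (-0.47, with no overlap between the groups) and Col3a1 (-0.17), the list's median was -0.32, and Lum was not well above background on any array. In the microglia list, 1 of 7 tested members was higher, the complement gene C1qb (1.04, limma adjusted p = 0.0242), with sums of 5.16 to 7.72 in the controls and 5.94 to 6.74 with Klf4. That list's median difference was -0.001, and 3 of the 7 were above 0. In the endothelium list, 1 of 4 tested members was higher, Tek (2.38, limma adjusted p = 0.00160), with sums of 94.3 to 114 and 87.8 to 156. Flt1 (-0.02) and Kdr (0.03) did not pass. Kdr was by far the brightest (mean level 6.68 in the controls and 6.71 with Klf4) and made most of these sums. Of all features, 3.20% were called higher. The defining markers Cx3cr1 (-0.23, adjusted p = 0.718), Cdh5 (-0.01, 0.992) and Pdgfrb (-0.86, 0.523) did not pass with limma. The part of such cells in the rises of Zfp36 and Nr4a1 was not tested. Of the retinal neuron markers named above 1 passed, the photoreceptor factor Crx, which fell (-0.84, limma adjusted p = 0.0378). Of all features, 0.467% were called lower. Nrl, at -0.99 with no overlap between the groups, did not pass (limma adjusted p = 0.0874). Otx2 (-0.44), Neurod1 (-0.27), Rcvrn (-0.20) and Pax6 (-0.0016) overlapped between the groups and did not pass either. No tested marker of lens, astrocytes, red blood cells or pigment epithelium passed in either direction with limma, 12 genes in all, and Hbb, Tyr and Tyrp1 were not well above background on any array.

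The 250 bases upstream of the annotated start were read for the 2 genes that rose, and for Egr2 and Dusp1, which did not pass, to show which letters these early promoters share. They are RefSeq's on assembly GRCr8, from a table of promoters in which 7 of the 10 members were matched, and run 5′ to 3′ on the gene's strand. Capitals mark every match, on either strand, to CACCC (bound by KLF proteins), TGACG and TGACGTCA (a short and the full form of the cyclic AMP response element, the first lying within the second), GCGNGGGCG (bound by EGR proteins) or the CArG box of serum response factor.
Zfp36, chr1:92799109-92799358, minus strand: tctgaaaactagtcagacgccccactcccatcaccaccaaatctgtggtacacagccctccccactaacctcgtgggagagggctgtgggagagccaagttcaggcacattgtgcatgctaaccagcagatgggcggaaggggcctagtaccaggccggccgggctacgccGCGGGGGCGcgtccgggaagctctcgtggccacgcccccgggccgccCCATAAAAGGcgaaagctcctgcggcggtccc
Nr4a1, chr7:134259888-134260137, plus strand: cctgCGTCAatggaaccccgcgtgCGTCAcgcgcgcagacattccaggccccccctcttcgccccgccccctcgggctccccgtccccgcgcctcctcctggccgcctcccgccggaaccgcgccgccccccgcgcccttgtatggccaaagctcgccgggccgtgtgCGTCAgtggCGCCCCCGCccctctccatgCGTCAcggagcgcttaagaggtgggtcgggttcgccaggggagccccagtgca
Egr2, chr20:21054442-21054691, minus strand: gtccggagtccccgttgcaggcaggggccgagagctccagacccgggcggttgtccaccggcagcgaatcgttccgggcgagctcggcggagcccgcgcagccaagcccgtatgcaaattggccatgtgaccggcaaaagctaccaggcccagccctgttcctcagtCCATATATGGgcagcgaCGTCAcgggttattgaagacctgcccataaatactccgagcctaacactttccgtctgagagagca
Dusp1, chr10:17184603-17184852, plus strand: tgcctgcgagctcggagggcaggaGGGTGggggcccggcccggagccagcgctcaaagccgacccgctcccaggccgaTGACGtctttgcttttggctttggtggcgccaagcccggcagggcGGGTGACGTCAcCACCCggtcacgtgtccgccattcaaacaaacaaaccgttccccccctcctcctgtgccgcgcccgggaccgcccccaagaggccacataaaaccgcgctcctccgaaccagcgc

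Among the 7 promoters, both genes that rose held 1 EGR motif, its last base 71 bases before the start in Zfp36 and 65 in Nr4a1, and the other 5 held 0; 4.3% of 33469 rat promoters of the same length held it. Zfp36 and Egr2 held 1 CArG box each and Egr1 held 2, a motif in 1.5% of all promoters; the match in Zfp36 ends 23 bases before the start. Nr4a1 held 4 copies of TGACG and 0 of the full element. The full element was in Ier2 and Dusp1, and in 1.6% of all promoters, while TGACG was in 18.2%. CACCC, in 49.2% of all promoters, had 0 matches in Zfp36 and Nr4a1, 3 in Dusp1 and 2 in Egr1. It was the only KLF pattern read, so 0 matches to it do not show that a promoter lacks sites for KLF proteins. These matches describe letters in a short window and say nothing of binding in these cells.

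Egr1 (Zif268, Krox-24), the best known of the EGR factors, did not pass. Its control levels on replicates 2 to 5 were 2.41, 2.57, 2.56 and 1.25, and with Klf4 they were 2.20, 2.69, 0.73 and 1.82. The Klf4 arrays spanned the whole range of the controls. The lowest array of each group, control replicate 5 and Klf4 replicate 4, was also the array of its group with the smallest share of spots well above background; the part of this in the levels was not tested. The means were 2.20 ± 0.64 and 1.86 ± 0.83 (SD, n = 4 each), a difference of -0.34 with a 95% interval from -1.37 to 0.70 (limma adjusted p = 0.877). The interval is wide enough to hold a fall of more than 2-fold, and the sign turned to 0.04 without Klf4 replicate 4. Within the first scan the difference was -0.64 and within the second, with 1 array per group, 0.57.

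Egr2 (Krox-20), which is needed for Schwann cell myelination and hindbrain patterning, was read by 2 probes that disagreed. The brighter probe gave 0.62, 0.64, 0.69 and -0.36 in the controls and 0.66, 0.66, 0.43 and -0.21 with Klf4, with replicate 5 lowest in both groups. Its difference was -0.01 (95% interval -0.68 to 0.65, limma adjusted p = 0.995). The dimmer probe gave -0.45, -0.26, -0.48 and -0.73 in the controls and 0.14, 0.11, -0.07 and 0.51 with Klf4, without overlap. Its difference was 0.65 (95% interval 0.27 to 1.03), and it did not pass when each kept probe was tested as a feature (limma adjusted p = 0.0881), a fit that called 3.63% of all features. Both probes are assigned to the same transcript, and which of them follows Egr2 mRNA cannot be read from these data. Egr3, which is co-induced with Egr1 in neurons, ranged from -4.49 to -3.87 in the controls and from -4.18 to -3.74 with Klf4. The difference was 0.19 (95% interval -0.20 to 0.57, limma adjusted p = 0.782).

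**Figure D3:**
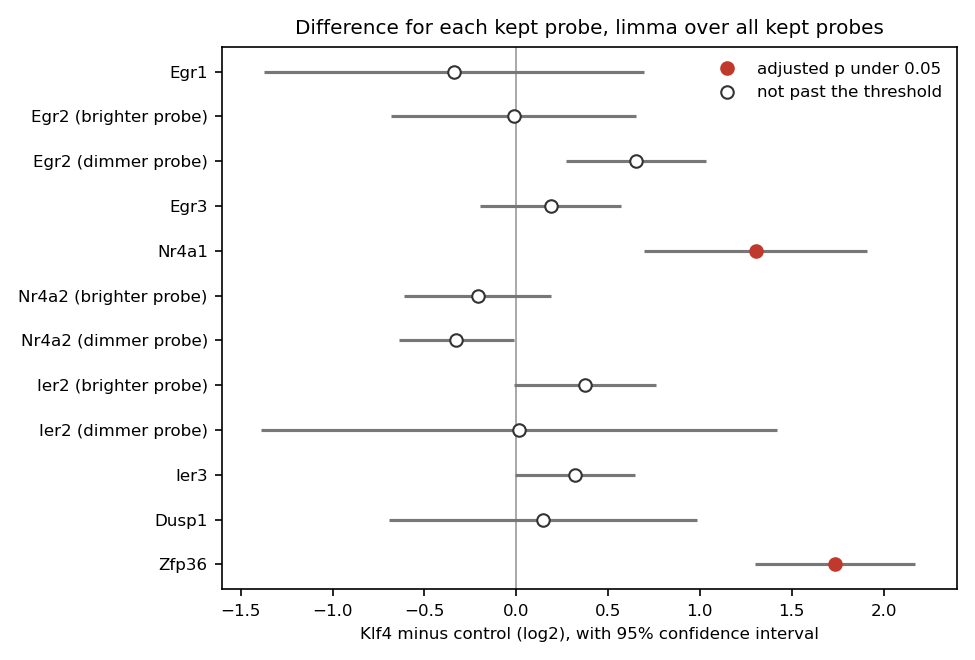
Klf4 minus control (log2, points) with the 95% confidence interval (lines) for each of 12 kept probes, fitted with limma over all kept probes; filled points are past the adjusted threshold. The intervals of Zfp36, Nr4a1 and the dimmer Egr2 probe lie above 0, that of the dimmer Nr4a2 probe lies just below it, and the others include it.

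Nr4a2 (Nurr1), the receptor required for midbrain dopamine neurons, did not follow Nr4a1. The brighter of its 2 probes read -1.87, -1.77, -1.73 and -1.85 in the controls and -2.28, -1.96, -1.57 and -2.25 with Klf4. Of the Klf4 arrays, 3 were below all controls and replicate 4 was above them. The difference was -0.21 (95% interval -0.61 to 0.19, limma adjusted p = 0.759), and that of the dimmer probe was -0.33 (95% interval -0.64 to -0.01, limma adjusted p = 0.383 over all kept probes). The 95% intervals of Nr4a1 (0.70 to 1.91) and of both Nr4a2 probes did not meet, though the difference between the genes was not itself tested. Nr4a3 (NOR-1) read -7.56 to -6.98 in the controls and -8.33 to -6.86 with Klf4, and since none of these was well above background no fold is given.

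Ier2 and Ier3 are early response genes of other families, Ier2 a nuclear protein and Ier3 (IEX-1) a regulator of survival. Ier2 was read by a probe with 10 spots and a dimmer probe with 1. On the first, the controls were 4.24, 4.08, 4.00 and 4.38 and the Klf4 arrays 4.59, 4.61, 4.18 and 4.83. On it 3 of the 4 Klf4 arrays were above all controls and replicate 4 was not. The difference was 0.38 (95% interval -0.01 to 0.76, limma adjusted p = 0.435), and it passed with array weights (0.52, adjusted p = 0.0116), which give less weight to deviating arrays. The dimmer probe was at -3.82 on Klf4 replicate 4, against -1.33 to -0.76 on the other Klf4 arrays, and its difference was 0.02 (SE 0.61). Ier3 read -1.0, -0.87, -0.88 and -1.14 in the controls and -0.47, -0.76, -0.52 and -0.87 with Klf4. Of the Klf4 arrays, 3 were above all controls and replicate 5 lay among the controls. The difference of 0.32 (95% interval -0.0044 to 0.64, limma adjusted p = 0.427) was not past the threshold. The SD between the spots of 1 array was 0.04 to 0.06 for Ier2 and 0.04 to 0.08 for Ier3, so the spread between arrays was the larger part of the error.

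Dusp1 (MKP-1) read -3.27, -3.87, -3.65 and -3.17 in the controls and -3.02, -3.05, -4.49 and -2.81 with Klf4. On 3 of the 4 Klf4 arrays it was above all controls. On replicate 4 it was below all controls and was not well above background. The difference was 0.15 (95% interval -0.69 to 0.98, limma adjusted p = 0.955). Leaving out Klf4 replicate 5 gave -0.03. Without Klf4 replicate 4 it was 0.53 and still did not pass (adjusted p = 0.219).

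The members' places within their groups differed by array. On Klf4 replicates 2 and 3, 8 of the 9 tested members lay above their group's mean, and on control replicate 5 only 2 did. The members' median deviation from the group mean was 0.22, 0.16, -0.22 and -0.06 on Klf4 replicates 2 to 5. On control replicates 2 to 5 it was 0.06, 0.10, 0.09 and -0.27. That of all features lay between -0.03 and 0.04 on all arrays. Scaling and centring hold it near 0, so it cannot show how far a median of 9 genes strays, and a shared shift of the members was not tested. The profile of Egr1 over the 8 arrays was compared with that of 13496 genes by the root mean square distance of their centred levels. The 5 nearest genes were Vom1r9 (0.196), Slco2b1 (0.205), Cubn (0.213), LOC102552563 (0.214) and Wfdc6a (0.218). They were chosen for this likeness, so the arrays on which they were low are no further result, and they were well above background on only 2 to 4 arrays of each group. Of the other members the nearest to Egr1 was Egr2 (0.533), at rank 1646. Zfp36 was the farthest (1.16).

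Of 61 other immediate early genes and their regulators, 58 had a probe, 51 were tested, and 8 rose and 3 fell with Klf4, against 3.20% and 0.467% of all features. Their median difference was 0.09, against -0.07 over all features, and the groups did not overlap for 12 higher and 7 lower genes, against 5.74% and 4.47% of all features. The list was chosen with earlier results of these data known, so it cannot show an excess over these shares. Among the 13595 tested genes with a symbol, 620 were called higher and 86 lower, with a median of -0.03. The neuronal activity genes with a call were Vgf, a secreted neuropeptide precursor (2.98), and Arc, a synaptic regulator of receptor endocytosis (2.42, SE 0.31, limma adjusted p = 0.00342), 2 of 4 tested. Arc was -2.73 to -1.77 in the controls and -0.66 to 0.63 with Klf4. Among AP-1 and ATF factors 1 of 7 rose, the stress factor Atf3 (2.71, SE 0.30, limma adjusted p = 0.00145), while Fos (0.62, adjusted p = 0.836) and Jun (-0.19, 0.716) did not pass with limma. Junb, at 0.67 with no overlap between the groups, did not pass either (limma adjusted p = 0.0746).

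Of 11 other early transcription factors 2 rose, the TGF-beta inducible repressor Klf10 (1.97, SE 0.16, limma adjusted p = 0.000321) and Csrnp1 (1.18). Egr4 and Npas4 were not kept. Among feedback regulators of kinases and of EGR, 1 of 11 rose and 2 fell. Spry4, an inhibitor of receptor tyrosine kinase signalling, rose by 3.17 (SE 0.40, limma adjusted p = 0.00280), while Rgs2, which limits G protein signalling, fell by 1.0 (SE 0.12, limma adjusted p = 0.00186) and the phosphatase gene Dusp14 by 0.86. The EGR corepressor gene Nab2, itself a target of EGR factors, was at 0.70 (limma adjusted p = 0.233) and Nab1 at 0.34 (0.470). Zfp36l1 (-0.30, limma adjusted p = 0.429) and Zfp36l2 (0.05, 0.989), which encode the relatives of ZFP36, did not pass. Of 11 growth and survival genes 2 rose, the kinase gene Sgk1 (limma adjusted p = 0.000414) and Ier5l (0.81), and Plk2 fell by 0.96. Sgk1 passed the filter through the Klf4 arrays alone, being detected well above background on all 4 of them and on 1 control of 4, so the size of its rise is not fixed by these data: the fitted difference was 4.44, and 2.36 with normexp. None of the 4 tested genes for serum response factor and its partners (Srf, Elk1, Elk3 and Elk4) passed with limma, nor did any have an unadjusted p under 0.05.

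Several of these calls did not hold with fewer arrays, or under other settings with all arrays kept, while the differences kept their direction. The call of Csrnp1 ended when control replicate 2, 3 or 4 or Klf4 replicate 5 was left out (adjusted p 0.0677 to 0.0783), with a difference of 1.01 to 1.34 whichever array was left out. Plk2 lost its own without replicate 2 of either group, control replicate 4 or Klf4 replicate 5 (0.0553 to 0.0830). Vgf did so without any array but control replicate 3 or Klf4 replicate 4 (0.0932 to 0.137), and Dusp14 and Ier5l without any but Klf4 replicate 4 (0.0547 to 0.109). Whichever array was left out, the difference was -1.06 to -0.83 for Plk2, 2.57 to 3.57 for Vgf, -0.96 to -0.77 for Dusp14 and 0.72 to 0.91 for Ier5l. Calls were also lost with all arrays kept. Examples by limma adjusted p are Vgf with scan as a block (0.0581), Dusp14 with the array median (0.0925), and Csrnp1 (0.0792) and Ier5l (0.0637) with normexp. Of 23 alternatives Vgf passed in 10, Dusp14 and Ier5l in 12 each, and Csrnp1 and Plk2 in 16 each. Spry4, Atf3, Arc, Klf10 and Rgs2 kept their calls with each single array left out and in the other alternatives run. The count of higher genes fell to 5 without control replicate 2 or 4 or Klf4 replicate 5, and that of lower genes to 1 without the same arrays as Plk2.

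**Figure D4:**
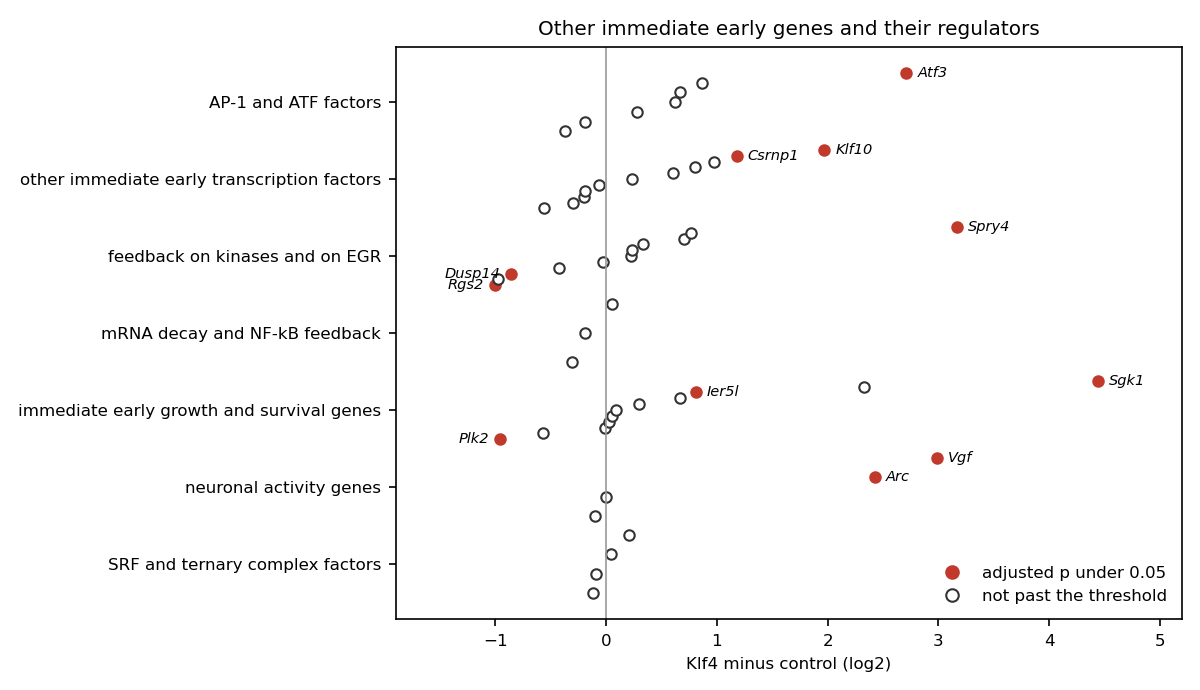
Klf4 minus control (log2, horizontal axis) for the 51 tested genes of the related list, by group (vertical axis; points are spread within a group for legibility); filled, named points passed the adjusted threshold. The 8 rises run from 0.81 (Ier5l) to 4.44 (Sgk1, whose control level was above background on 1 array of 4) and the 3 falls from -1.0 (Rgs2) to -0.86 (Dusp14).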

How the data were processed

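Total RNA of sorted cells was labelled with Cy3 and read on 1-colour Agilent arrays, 8 on 1 slide, with Feature Extraction 10.7.3.1, per the file headers. Per the file headers, that software subtracted background and spatial trend from the deposited intensity values, with no scaling across arrays. Flags in the same files (unit other), deposited by the authors, mark control, outlier and well-above-background spots. The authors also deposited log2 values with a median of 7.54 on each array and equal quantiles, made in a way the sources used here do not state; they were used as an alternative.

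Gene spots without an outlier flag were averaged per probe on the log2 scale, and each array's 75th percentile over gene probes (732 to 1718 in signal units) was subtracted. Probes were named through RefSeq transcripts of assembly GRCr8: 1 symbol was found for 21109 of 45598 gene probes, several for 0 and none for 24489. Each gene was read by its brightest kept probe. The comparison used limma 3.58.1 (R 4.3.3), two-sided, without covariates. Precision is limited by how many arrays there are. The rule for named genes took all members, every related gene past the threshold and the 5 genes with profiles nearest to Egr1; other genes were picked with their values in view. The members and lists were chosen with earlier results of these data known. Alternatives covered scaling, background correction, filters, probe choice, array weights, scan, slide row, replicate number and each array left out. Normexp used pixel medians, and the planned version on mean signals was not run because the files hold no such column. Plots were made in Python 3.11.15 with matplotlib 3.10.9. A listed marker gene is not reported here.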

Additional observations from a re-analysis of the deposited data

Results flagged for a closer look

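Of 26 sets of 4 values checked (13 probes in 2 groups), 3 had 1 array far from the other 3 by Dixon's criterion, which chance flags in about 1 of 20 sets. The Egr1 level on control replicate 5 was 1.25, against 2.41 on the nearest control. The brighter Egr2 probe on the same array was at -0.36, against 0.62. Dusp1 on Klf4 replicate 4 was at -4.49, against -3.06.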

How the results depend on the processing

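Each result was recomputed under 23 alternatives, 21 listed at the outset and 2 added after seeing the data (normexp on pixel medians and the percentile over spots). The count of members higher with Klf4 was 2, and 1 with the percentile over spots, no filter on dim probes, the first scan alone and the replicate block, 1 to 2 with single arrays left out (Nr4a1 lost its call each time), and 3 with array weights (Ier2 added); the count of lower members stayed at 0. In the related list the count of higher genes, 8, was 5 with the percentile over spots and in the first scan alone, 5 to 9 with single arrays left out, and 12 with array weights. The count of lower genes, 3, was 5 with quantile normalization, the authors' values and array weights, 1 in the first scan alone and with the replicate block, and 1 to 4 with single arrays left out. With fewer arrays the tests have fewer degrees of freedom; for the other settings the cause was not tested.

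Differences near 0 turned sign. Egr1 was at 0.16 without both arrays numbered 4, and -0.66 to 0.04 with single arrays left out (0.039 without Klf4 replicate 4). Egr2 was at 0.019 with the array median, 0.32 with the mean over probes, 0.069 without both arrays numbered 4, and -0.27 to 0.18 with single arrays left out (above 0 without control replicate 2, 3 or 4 or Klf4 replicate 5). Dusp1 was at -0.033 to 0.53 with single arrays left out (below 0 without Klf4 replicate 5). Of 460 recomputed values for 20 genes, 390 kept their direction and side of the threshold, 59 lost a call, 1 gained one and 10 turned sign. Over all features 87.3% of calls were higher, 75.5% with normexp and 60.7% with array weights.

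The arrays share numbers 2 to 5. Deviations of same-numbered arrays correlated at 0.36, 0.24, 0.06 and 0.55, and each array numbered 2, 3 or 5 correlated best with its own number. Whether equal numbers mark pairs is not settled by these values, and the main fit left the arrays unpaired. With the replicate number as a block Zfp36 had an adjusted p of 0.00473 and Nr4a1 one of 0.0859, Dusp14 (0.0913), Plk2 (0.0770) and Vgf (0.116) lost their calls, and the counts over all features went from 961 higher and 140 lower to 842 and 101.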
